A study of Mus musculus with 36 samples.

Results

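The last recorded step of liver regeneration in old mice, from the time point labelled 120 to the one labelled 240, was described from 6 of the 36 libraries of the series. The 6 libraries were chosen by their labels alone: 3 livers at 120 and 3 at 240, all from C57BL/6JN mice of 18 months. C57BL/6JN is an inbred laboratory strain, and no gene deletion or transgene is named for any group. The same step in mice of 4 months (3 libraries at 120 and 3 at 240) served for comparison, and the libraries labelled before gave the level without regeneration. The labels state neither the unit of the time points nor how regeneration was induced, and they name the old mice as the treated group. Total RNA, freed of ribosomal RNA, was sequenced from frozen liver, so precursor and non-polyadenylated RNA could be sequenced with mature messages. How much of it was counted depends on the annotation used, which is not given in the sources used here.

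After loss of tissue the liver regrows mainly by division of its remaining hepatocytes, while the same cells go on making plasma proteins and managing fat and sugar. In the fed state hepatocytes turn glucose into acetyl-CoA and build fatty acids from it, a programme driven by insulin through SREBP-1c and by glucose through ChREBP. Fasting, stress and inflammation shift hepatocytes to other genes, among them the insulin-like growth factor binding protein Igfbp1 and the acute phase proteins of the plasma.

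Between 120 and 240, 6 of 22 genes listed for fatty acid synthesis rose in old liver, among them Thrsp, Elovl6 and Fasn, while Igfbp1, the apolipoprotein gene Apoa4 and the fatty acid hydroxylase gene Cyp4a31 fell. Of 13436 genes tested with edgeR's quasi-likelihood test, 34 were called at an adjusted p under 0.05, which is 0.253% of all genes. Of these, 14 (0.104%) were higher and 20 (0.149%) lower at 240. The spread of each gene was estimated over all 36 libraries, and fits of only the 6 libraries or only the old libraries called 0. The CPM of the 2 groups (a gene's count scaled to the library's total) did not overlap in 31 of the 34, against 15.2% of all tested genes. The 34 were called from these same values, so their share was largely set by the calling and is not independent support. All 48 genes of mitosis and cytokinesis had a log2 fold change below 0, but none of them was called. Fold changes are given on the log2 scale throughout.

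Old 120 replicate 3 stood apart from the other 5 libraries in pancreatic transcripts and is given here before the results. Its genes of pancreatic acinar cells summed to 762 CPM, against 3.08 to 6.37 CPM in the others. Of 33 such genes listed, 31 were in the tables and 3 passed the filter on low counts. The defining enzymes Cpa1, Prss2, Cela2a, Cela3b and Pnlip were at 0 in the other 5 libraries, and the islet hormones Ins2 and Gcg were at 0 in all 6. Old 120 replicate 3 and old 240 replicate 1 also carried transcripts of 4 Y-linked genes (199 and 213 CPM), which reached at most 0.212 CPM in the other 4 libraries. Xist was at 1.43 and 1.54 CPM in these 2 libraries and at 2820 to 4130 CPM in the other 4. Across genes, old 120 replicate 3 correlated more closely with old 240 replicate 1 (Pearson's r = 0.9768 on log2 CPM) than with its own group (0.9491 and 0.9509). Old 240 replicate 1 likewise correlated less with its own group (0.9455 and 0.9563). In 27 of the 34 called genes old 120 replicate 3 was the library at 120 nearest to the mean at 240. This was not counted over all genes, so it is not shown to be particular to the called ones. Across all tested genes old 120 replicate 3 also correlated more closely with each library at 240 (0.9509 to 0.9768) than replicates 1 and 2 did (0.9368 to 0.9528). Without it, 211 of 13690 genes tested were called (90 higher, 121 lower), among them all 34. Leaving it out leaves 120 without a library that carries Y-linked transcripts, while 240 keeps its own.

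Total counts were 2899527 to 4702471 at 120 and 2933949 to 4746579 at 240. At this depth 3 counts, taken as the limit of detection, equal 0.613 to 1.02 CPM in these 6 libraries. The label liver was borne out by its main product in all 6, with albumin (Alb) at 6740 to 9630 CPM. Livers of 1 group varied by 27.2% at 120 and 24.5% at 240, as the biological coefficient of variation.

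**Figure D1:**
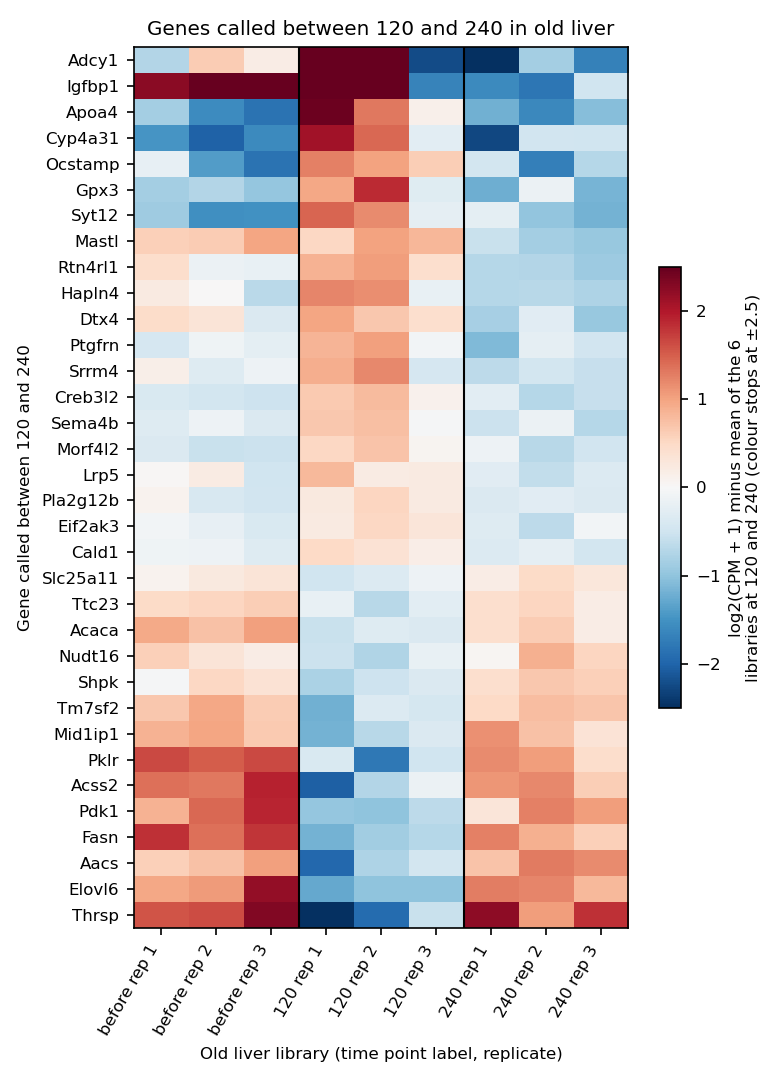
Level of each of the 34 called genes (rows) in 9 old libraries (columns: 3 before, 3 at 120, 3 at 240). Colour gives log2(CPM + 1) minus the gene's mean over the 6 libraries at 120 and 240, red above and blue below; old 120 replicate 3 is the palest column at 120, and many of the 14 genes that were higher at 240 are red again in the libraries before.

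Called enzymes of fatty acid synthesis included both that build the chain from acetyl-CoA, Fasn and Acaca. Fasn, the fatty acid synthase (chr11:120805958-120825166, RefSeq on GRCm38.p6), stood at 687, 857 and 960 CPM at 120 and at 3750, 2910 and 2380 CPM at 240. All 3 libraries at 240 lay above all 3 at 120, but below the mean of 5040 ± 826 CPM (SD, n = 3) before. The log2 fold change of Fasn was 1.85 ± 0.32 (adjusted p = 0.0106, edgeR's quasi-likelihood test), where ± gives an approximate SE here and for every fold change below. This SE was calculated back from the test, as the absolute log2 fold change divided by the square root of the F statistic. Acaca, the acetyl-CoA carboxylase that forms the malonyl-CoA used by Fasn, went from 80.1, 95.5 and 92.3 CPM to 159, 186 and 135 CPM (0.84 ± 0.16 on the log2 scale, adjusted p = 0.0185). Its groups did not overlap either, and its change was the smaller one of the pair.

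Elovl6, which lengthens the palmitate made by Fasn (chr3:129532386-129638495), ranked next to Thrsp in size of change. Elovl6 measured 191, 229 and 231 CPM at 120 and 1120, 1080 and 811 CPM at 240, with a log2 fold change of 2.21 ± 0.37 (adjusted p = 0.0106). Thrsp, a small nuclear protein that promotes lipogenesis (chr7:97412933-97417550), had the largest rise of all called genes. It measured 74.1, 119 and 311 CPM at 120 and 2170, 942 and 1620 CPM at 240, or a log2 fold change of 3.23 ± 0.65 (adjusted p = 0.0294). Old 120 replicate 3 was its highest library at 120 and still lay below all 3 at 240. Mid1ip1, the close relative of Thrsp that acts on acetyl-CoA carboxylase, went from 79.1, 112 and 141 CPM to 404, 304 and 232 CPM (1.5 ± 0.34, adjusted p = 0.0489).

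Acss2 and Pklr, which supply the pathway, also rose. Acss2, the cytosolic enzyme that turns acetate into acetyl-CoA, went from 30.5, 77.0 and 116 CPM to 277, 297 and 197 CPM (1.77 ± 0.39, adjusted p = 0.0438). Pklr, the liver pyruvate kinase of glycolysis, went from 209, 77.3 and 190 CPM to 619, 559 and 370 CPM (1.70 ± 0.35, adjusted p = 0.0312). Neither gene overlapped between the time points. Aacs, which activates acetoacetate in the cytosol for the synthesis of lipids, went from 13.9, 33.4 and 41.4 CPM to 94.5, 142 and 131 CPM (2.03 ± 0.35, adjusted p = 0.0106). Pdk1, a kinase that inhibits the pyruvate dehydrogenase complex, went from 95.3, 92.8 and 118 CPM to 232, 446 and 386 CPM (1.79 ± 0.32, adjusted p = 0.0108).

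Of the 22 genes listed for fatty acid synthesis, all were tested and 6 were called, all of them higher: Thrsp, Elovl6, Fasn, Acss2, Pklr and Acaca. The median log2 fold change of the 22 was 0.98, beside 0.007 over all tested genes. Groups did not overlap in 13 genes that were higher at 240 and in 1 that was lower, against 7.55% and 7.63% of all tested genes. Without old 120 replicate 3, 10 of the 22 were called, all higher, and the median was 1.41. That fit called more genes in all, 90 higher and 121 lower of 13690. The mean log2(CPM + 1) of the list was 6.57, 6.62 and 7.28 at 120 and 8.47, 7.94 and 7.88 at 240, with 8.72, 8.38 and 8.73 before.

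Several of the 16 uncalled genes on this list had wide values at 120. Scd1, the desaturase that makes oleate, measured 72.2, 1620 and 2760 CPM at 120 and 27100, 11600 and 10100 CPM at 240. Its groups did not overlap, but its adjusted p was 0.0995. The carboxylase gene Acacb (1.38 ± 0.33, adjusted p = 0.0624), the transcription factor gene Srebf1 (1.1 ± 0.31, adjusted p = 0.109) and the citrate lyase gene Acly (0.86 ± 0.28, adjusted p = 0.178) also missed the threshold. Mlxipl, which encodes ChREBP, had values that overlapped, 307, 183 and 219 CPM against 183, 393 and 316 CPM. Scd1, Acacb, Srebf1, Acly and Mlxipl were picked for mention after their values had been seen.

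**Figure D2:**
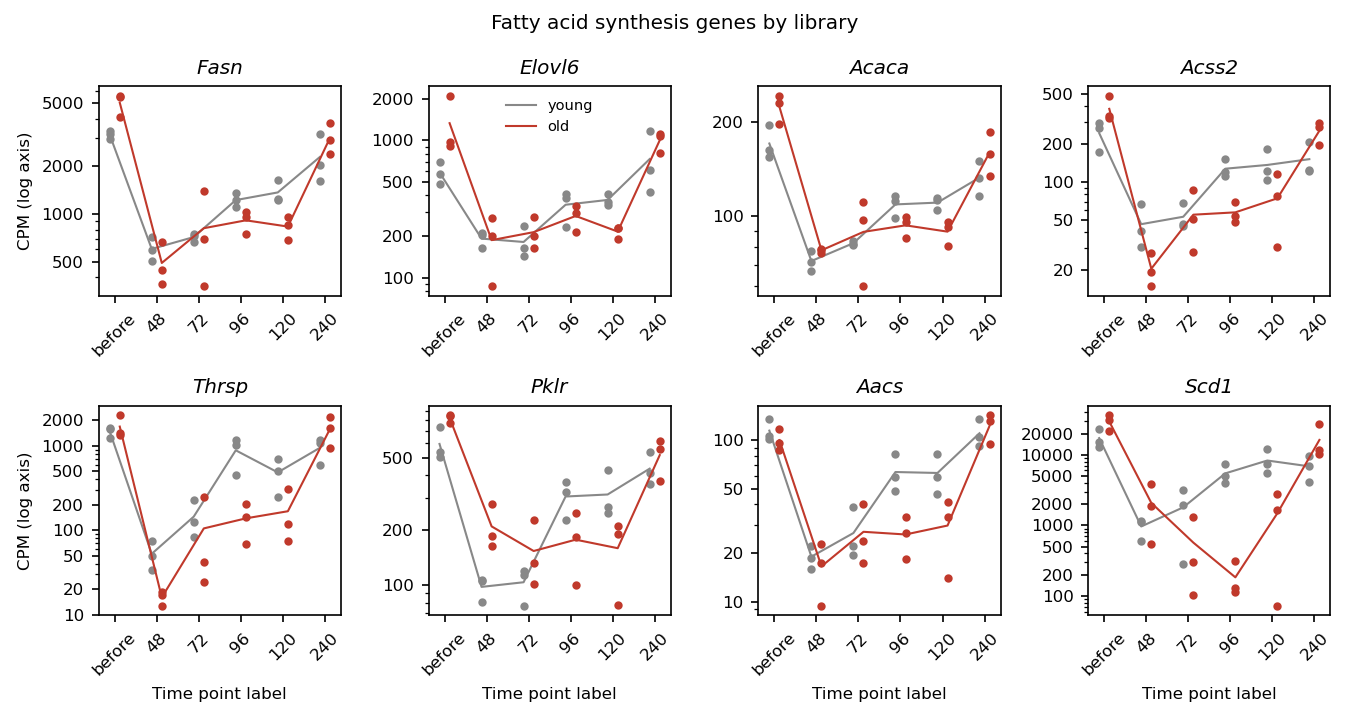
CPM (log axis) of 8 genes of fatty acid synthesis and its supply in each library (points) and the group mean (lines) by time point label, for young (grey) and old (red) liver. In each panel the 3 old libraries at 240 lie above the 3 at 120, which for Fasn are at most 960 CPM against at least 2380 CPM; Scd1 was not called.

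The sterol branch was represented by a single call. Tm7sf2, a sterol reductase of cholesterol synthesis, went from 31.8, 58.8 and 54.7 CPM to 106, 129 and 122 CPM, without overlap (1.29 ± 0.26, adjusted p = 0.0294, edgeR's quasi-likelihood test). It was the 1 gene called among 24 tested for cholesterol synthesis and uptake. A fold change above 0 was found for 22 of the 24, beside 6859 of all 13436 tested genes. The median of the list was 0.66, and 9 genes did not overlap, all of them higher, against 7.55% of all tested genes.

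The other called genes that rose have varied roles. Shpk, a sugar kinase that feeds the pentose phosphate pathway, went from 41.7, 50.3 and 56.6 CPM to 97.3, 118 and 110 CPM (1.12 ± 0.18, adjusted p = 0.0106). Nudt16, a nucleotide hydrolase, rose by 1.04 ± 0.23, Ttc23 by 0.77 ± 0.17 and Slc25a11, the mitochondrial carrier for oxoglutarate and malate, by 0.64 ± 0.12 on the log2 scale. Their adjusted p-values were 0.0438, 0.0438 and 0.0173, and none of the 3 overlapped between the time points.

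Among the genes that fell, Apoa4 was the most abundant. Apoa4, an apolipoprotein of secreted lipid particles (chr9:46240844-46243458), measured 5450, 2470 and 1080 CPM at 120 and 431, 324 and 477 CPM at 240. The groups did not overlap, and the level at 240 was near the mean before, 388 ± 148 CPM (SD, n = 3). The log2 fold change was -2.87 ± 0.51 (adjusted p = 0.012). Cyp4a31, a cytochrome P450 of the family that hydroxylates fatty acids, went from 47.3, 29.4 and 8.37 CPM to 1.32, 7.14 and 7 CPM (-2.47 ± 0.54, adjusted p = 0.0438). It was the only called gene among 35 tested for fatty acid oxidation and ketone synthesis. Cpt1a, which controls the entry of fatty acids into mitochondria, was not called (0.27 ± 0.23, adjusted p = 0.733).

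Igfbp1 and Adcy1 had the largest falls, and both rested on 2 of the 3 libraries at 120. Igfbp1, a secreted protein that binds insulin-like growth factors and is repressed by insulin (chr11:7197787-7202546), measured 273, 380 and 13.9 CPM at 120 and 14.7, 12.6 and 32.7 CPM at 240. Old 120 replicate 3 therefore lay within the range at 240. The log2 fold change was -3.45 ± 0.76 (adjusted p = 0.0438), and the mean before was 400 ± 270 CPM. Adcy1, an adenylate cyclase that makes cyclic AMP (chr11:7063433-7178506), measured 120, 66.7 and 0.408 CPM at 120 and 0, 2.72 and 1.06 CPM at 240 (-5.77 ± 1.11, adjusted p = 0.0223). The annotated spans of Adcy1 and Igfbp1 lie 19.3 kb apart, and they were the only 2 of the 34 called genes within 100 kb of each other. Gpx3, a secreted glutathione peroxidase, was the third gene whose groups overlapped, with 24.5, 47.0 and 9.60 CPM against 4.61, 10.9 and 4.88 CPM (-2.03 ± 0.43, adjusted p = 0.0403).

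In the Y-linked pair alone, old 240 replicate 1 over old 120 replicate 3, the log2 ratio of Igfbp1 was 0.08 and that of Syt12 was -0.01. In the other 4 libraries the same ratios were -3.92 and -2.41. Across the called genes, 33 of 34 had the direction of the call in the pair and 34 of 34 in the other libraries. The genes were called from these same libraries, so this agreement was largely set by their selection and is not independent support. For Fasn and Elovl6 the ratios were alike in both, 1.96 and 2.27 in the pair and 1.78 and 2.15 in the others. With a term for the Y-linked transcripts in the fit, 61 genes were called, among them all 34, and without the libraries that carried them 308, among them 32 of the 34.

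**Figure D3:**
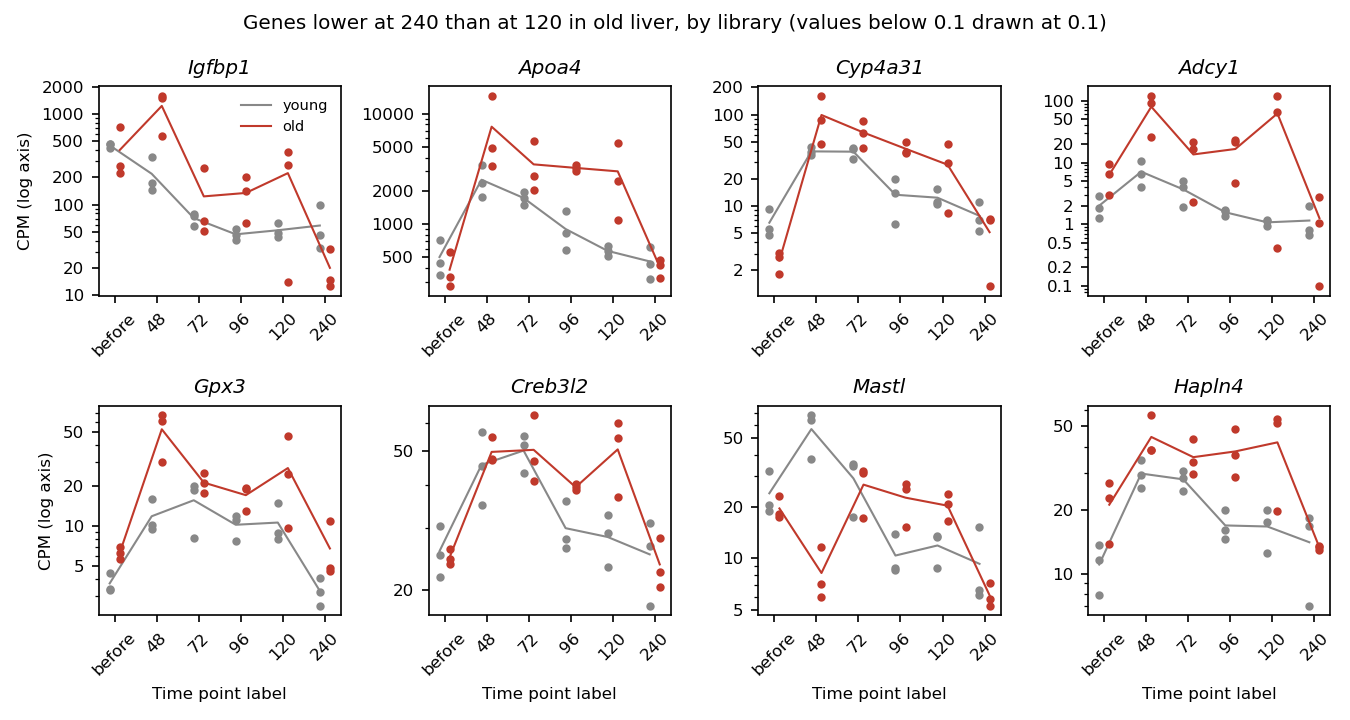
CPM (log axis, values below 0.1 drawn at 0.1) of 8 genes called lower at 240 than at 120 in old liver, in each library (points) with group means (lines) by time point label, young in grey and old in red. Old 120 replicate 3 is the low point at 120 for Igfbp1 (13.9 CPM) and Adcy1 (0.408 CPM), whereas for Mastl the 3 points at 120 lie between 16.5 and 23.7 CPM.

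The remaining called genes that fell were of low or moderate level. Mastl, the Greatwall kinase that blocks a phosphatase so that cells can stay in mitosis, went from 16.5, 23.7 and 20.6 CPM to 7.25, 5.78 and 5.30 CPM (-1.72 ± 0.37, adjusted p = 0.0426). It was the called gene with a role in cell division, and its mean before was 19.5 ± 3.02 CPM, near the level at 120. Creb3l2, a transcription factor of the endoplasmic reticulum membrane, went from 54.6, 60 and 37 CPM to 28.1, 20.4 and 22.5 CPM (-1.08 ± 0.21, adjusted p = 0.0233). Eif2ak3, which encodes PERK, a sensor of unfolded protein in the same organelle, went from 39.7, 49.1 and 41.9 CPM to 26.8, 21.1 and 32.4 CPM (-0.69 ± 0.16, adjusted p = 0.0489). In both genes every library at 240 lay below every library at 120.

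Lrp5, a coreceptor for Wnt ligands, fell by 0.86 on the log2 scale, and Dtx4, a ubiquitin ligase of the Deltex family, fell by 1.45. Cald1, the actin-binding protein caldesmon, was an abundant member of this set, with 945, 864 and 753 CPM at 120 and 528, 578 and 486 CPM at 240. Ocstamp (-2.32), Syt12 (-1.86), Rtn4rl1 (-1.67), Hapln4 (-1.64), Ptgfrn (-1.35), Srrm4 (-1.34), Sema4b (-1), Morf4l2 (-0.88) and Pla2g12b (-0.70) made up the rest, given as log2 fold changes. Several of these are best known outside the liver, such as Ocstamp in osteoclasts, Srrm4 in neuronal splicing and Hapln4 in brain matrix. Their levels in liver at 120 were 5.72 to 9.60 CPM for Ocstamp, 13.7 to 44.3 CPM for Srrm4 and 19.8 to 54.3 CPM for Hapln4.

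Windows of 250 bases upstream of the annotated start were searched for the CCAAT box, the core bound by the factor NF-Y, because these genes moved together. The letters CCAAT, on either strand, occurred in 8 of the 13 genes with a promoter in the RefSeq table among the 14 that rose. They occurred in 6 of 13 among the 20 that fell, and in 40.3% of 10169 tested genes. The E box CACGTG occurred in 0 of 13, 3 of 13 and 9.69%, and TCACNCCAC, a form of the sterol response element, in 0, 0 and 1.35%. A match is a description of letters and not a binding site. Printed are windows of 3 called genes that no annotated GENCODE exon overlaps, 1 that rose and 2 that fell, on GRCm38.p6. They read 5′ to 3′ on the strand of the gene, with CCAAT or its reverse complement ATTGG in capitals. The window of Creb3l2, which also fell, has no exon overlap either. It held 2 CCAAT boxes and is not printed. The RefSeq span of Fasn covers the whole of its window, and that of Eif2ak3 reaches into its own. Neither window therefore lies wholly upstream of the gene's span. Fasn lies at chr11:120824548-120824797 on the minus strand, Eif2ak3 at chr6:70844265-70844514 on the plus strand and Mastl at chr2:23156025-23156274 on the minus strand.
Fasn: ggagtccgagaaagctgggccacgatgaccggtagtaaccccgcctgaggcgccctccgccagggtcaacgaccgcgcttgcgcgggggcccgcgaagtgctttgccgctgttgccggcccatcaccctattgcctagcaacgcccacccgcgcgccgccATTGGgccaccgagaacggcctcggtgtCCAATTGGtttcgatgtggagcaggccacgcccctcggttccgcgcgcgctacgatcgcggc
Eif2ak3: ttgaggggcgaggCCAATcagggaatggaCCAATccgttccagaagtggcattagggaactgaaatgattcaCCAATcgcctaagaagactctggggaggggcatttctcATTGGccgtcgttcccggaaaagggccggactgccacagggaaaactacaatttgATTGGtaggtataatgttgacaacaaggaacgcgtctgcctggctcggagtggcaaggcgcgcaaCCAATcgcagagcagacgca
Mastl: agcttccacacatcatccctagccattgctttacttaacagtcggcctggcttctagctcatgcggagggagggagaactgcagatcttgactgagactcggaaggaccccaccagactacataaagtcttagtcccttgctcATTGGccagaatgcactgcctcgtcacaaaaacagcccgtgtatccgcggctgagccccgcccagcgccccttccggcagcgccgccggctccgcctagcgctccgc
The Fasn window held 3 CCAAT boxes, of which a pair overlaps on opposite strands, the Eif2ak3 window held 6 and the Mastl window held 1. A box was thus present on both sides of the comparison.

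Genes listed for mitosis and cytokinesis all had lower fitted levels at 240, without a call on that list. All 48 genes of mitosis and cytokinesis were tested, all 48 had a fold change below 0 (49% of all tested genes did), and the median was -1.83. In 42 of them the libraries at 240 lay below all libraries at 120, against 7.63% of all tested genes, and the same number had an unadjusted p under 0.05, beside 11.6% of all tested genes. The lowest adjusted p was 0.117, for Ncapg, a condensin subunit. Mki67, the proliferation marker, measured 590, 524 and 382 CPM at 120 and 188, 73.1 and 83.3 CPM at 240 (-2.12 ± 0.74, adjusted p = 0.214). The groups did not overlap, and the mean before was 56.7 ± 26.5 CPM. Top2a, Cdk1, Ccnb1 and Foxm1 had log2 fold changes of -1.86, -1.74, -1.92 and -1.54 with adjusted p-values of 0.282, 0.382, 0.377 and 0.396. In bulk tissue, fewer dividing cells and less RNA per dividing cell cannot be told apart.

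The mean log2(CPM + 1) over the 48 genes was 4.31, 3.88 and 3.54 at 120 and 2.95, 1.88 and 2.07 at 240. Old 240 replicate 1, which carried Y-linked transcripts, was the highest library at 240. The libraries before had 2.30, 1.79 and 1.25. Among 36 genes of DNA replication the median was -0.44 and none was called. Mcm2 (-0.78 ± 0.50, adjusted p = 0.595) and Mcm5 (-1.15 ± 0.66, adjusted p = 0.527), subunits of the replicative helicase, overlapped between the groups. The G1 cyclin gene Ccnd1 (0.08 ± 0.62), the methyltransferase gene Ezh2 (-0.07 ± 0.36) and the cell cycle inhibitor gene Cdkn1a (-0.92 ± 0.64) were not called either.

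**Figure D4:**
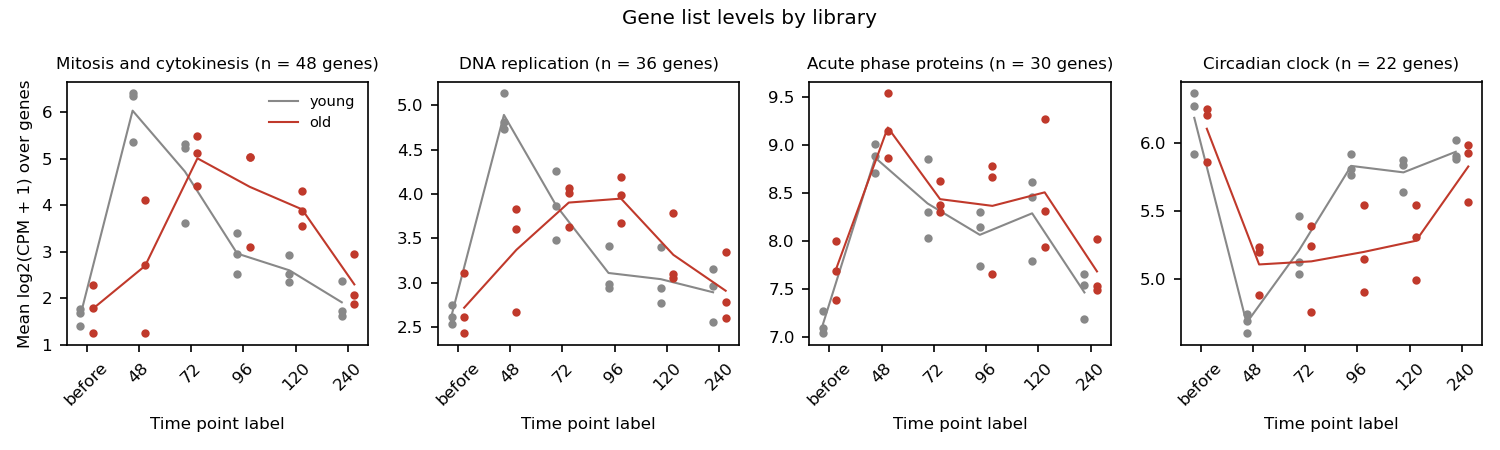
Mean log2(CPM + 1) over the genes of 4 lists in each library (points) and group means (lines) by time point label, young in grey and old in red. Old libraries at 240 lie below those at 120 for mitosis and cytokinesis (at most 2.95 against at least 3.54), while those for acute phase proteins overlap.

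Acute phase proteins, which the liver secretes in inflammation, mostly had lower fitted levels at 240, without a call in the comparison of all 6 libraries. Of 30 tested, 26 had a fold change below 0, beside 49% of all tested genes, and the median was -0.88. An unadjusted p under 0.05 was found for 17, all lower, beside 11.6% of all tested genes in either direction. Their summed level was highest in old 120 replicate 2, at 71500 CPM against 39600 and 27300 CPM in the other libraries at 120 and 27300, 23400 and 21500 CPM at 240. Apcs, the serum amyloid P component, measured 650, 1650 and 405 CPM at 120 and 284, 138 and 131 CPM at 240 (adjusted p = 0.0624). Lcn2, an iron-scavenging protein, measured 323, 387 and 131 CPM and then 88.5, 18.4 and 26.7 CPM (adjusted p = 0.0995). Saa1, a serum amyloid, overlapped, with 97.3, 873 and 111 CPM against 550, 34.7 and 37.7 CPM. Without old 120 replicate 3, 9 of the 30 were called, all lower, beside 121 called lower among all 13690 genes of that fit. The hormone of iron balance Hamp (0.28 ± 0.51) and the metallothionein gene Mt1 (-0.83 ± 0.65) overlapped between the groups.

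Chaperones of the endoplasmic reticulum were not called, unlike Creb3l2 and Eif2ak3 of the same organelle. Of 29 genes of heat shock and the unfolded protein response, 11 lay lower and 4 higher at 240 without overlap, against 7.63% and 7.55% of all tested genes, and none was called (median -0.25). Hspa5, the main chaperone of this compartment, measured 2410, 4310 and 2070 CPM at 120 and 1840, 1300 and 1660 CPM at 240 (adjusted p = 0.22). Hyou1 (-1.17 ± 0.31, adjusted p = 0.0901) and Calr (-0.80 ± 0.22, adjusted p = 0.0995) came nearest to the threshold. The cytosolic heat shock gene Dnajb1 stood on the other side, with 26.8, 30.9 and 27.4 CPM at 120 and 73.8, 42.8 and 36.1 CPM at 240 (adjusted p = 0.113). Without old 120 replicate 3, 3 of the 29 were called, all lower, beside 121 called lower among all 13690 genes of that fit.

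Genes of the circadian clock had a median of 0.78 over 22 tested, with 0 called. Per2, a repressor of the clock, measured 30.8, 33.4 and 70.4 CPM at 120 and 113, 105 and 117 CPM at 240 (1.30 ± 0.36, adjusted p = 0.108). Clock, which encodes its activator, measured 120, 165 and 111 CPM and then 94.9, 59.1 and 72.3 CPM (-0.80 ± 0.21, adjusted p = 0.092). Neither overlapped. Arntl, the partner of Clock, was at -1.65 ± 0.62 (adjusted p = 0.255), and the output gene Dbp at 0.93 ± 0.61 (adjusted p = 0.605). Without old 120 replicate 3, 6 of the 22 were called (5 higher, 1 lower), beside 211 of all 13690 genes of that fit. The hour of the day at which livers were taken is not given in the sources used here, and its part in these values was not tested.

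Hepatocyte identity and detoxification showed no call. Median log2 fold changes were -0.08 over 29 secreted and functional hepatocyte genes, 0.36 over 39 cytochrome P450 genes of families 1 to 3 and 0.18 over 25 genes of bile acids. Alb had a log2 fold change of -0.01 ± 0.23, and the fetal counterpart Afp -0.16 ± 0.47. Cyp7a1, the rate-limiting enzyme of bile acid synthesis, measured 159, 503 and 613 CPM at 120 and 437, 1770 and 1840 CPM at 240 (1.66 ± 0.94, adjusted p = 0.522). Its relative Cyp8b1 (0.20 ± 0.86), the pericentral genes Cyp2e1 (0.62 ± 0.35) and Glul (0.45 ± 0.39), and the transcription factor gene Hnf4a (-0.17 ± 0.13) overlapped between the groups. Igf1, the circulating growth factor bound by Igfbp1, was at 0.48 ± 0.27 and Socs2, an inhibitor of growth hormone signalling, at -0.31 ± 0.73.

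Lists of other cell types held no call, and their medians varied in size. The median was 0.19 over 28 genes of Kupffer cells and monocytes (Adgre1, 0.33 ± 0.37), 0.13 over 28 of sinusoidal endothelium and -0.29 over 36 of matrix and stellate cells (Col1a1, -0.64 ± 0.64). For 34 genes that restrain growth it was 0.10 (Tgfb1, 0.10 ± 0.25). The 11 tested genes of MHC class II all had a fold change above 0, beside 6859 of all 13436 tested genes. Their median was 1.05, and 5 did not overlap (7.55% of all tested genes did so in that direction). Cd74, its invariant chain, measured 16.9, 27.0 and 20.6 CPM at 120 and 54.0, 63.6 and 42.6 CPM at 240 (adjusted p = 0.187). Interferon genes summed to 1360, 967 and 3140 CPM at 120 and to 3550, 1810 and 1410 CPM at 240, highest in the 2 libraries with Y-linked transcripts. The adipose list summed to 232, 149 and 1150 CPM and then 1290, 1520 and 1620 CPM, mostly Car3, while Lep and Plin1 were at 0 in all 6 and Adipoq reached 0.204 CPM in 1.

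**Figure D5:**
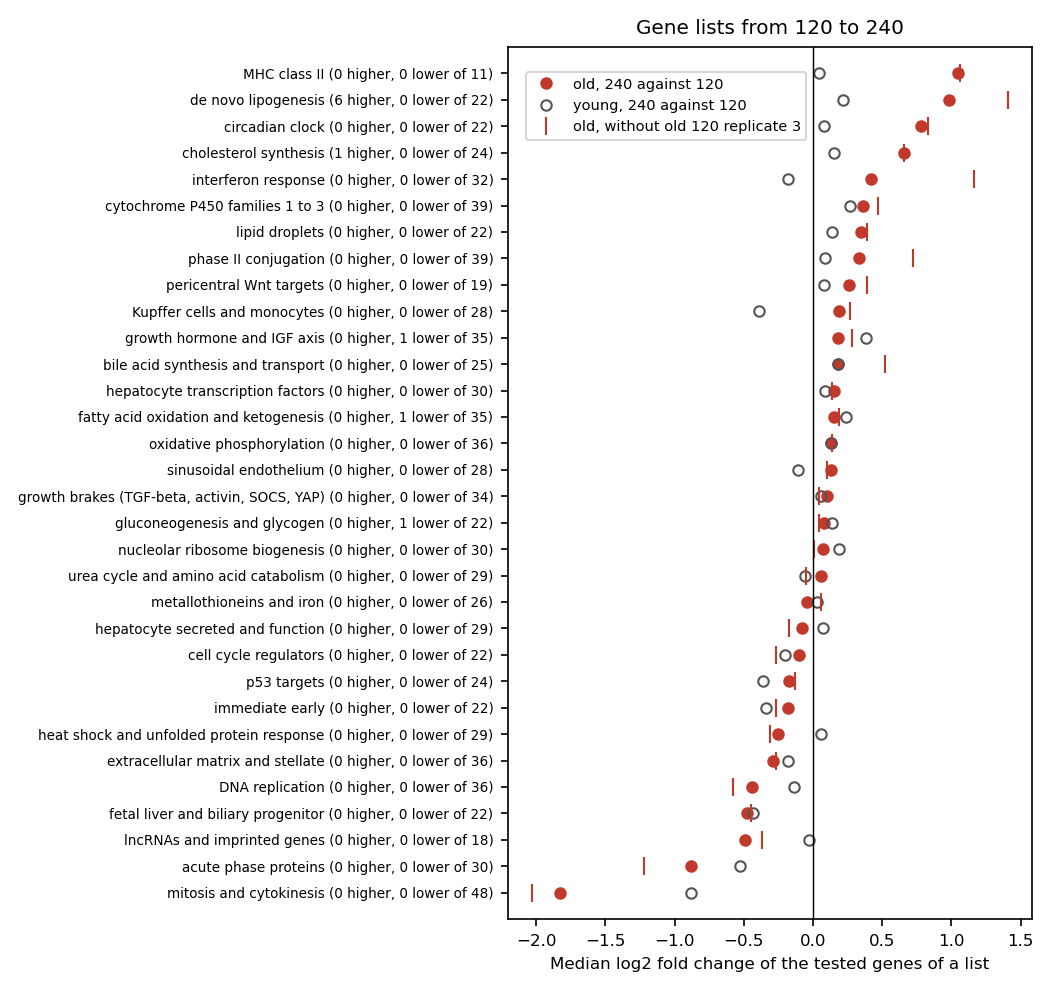
Median log2 fold change, 240 against 120, of the tested genes of each list with at least 10 of them (rows, with calls in old liver and number tested), for old liver (filled), young liver (open) and old liver without old 120 replicate 3 (tick). Mitosis and cytokinesis lies lowest at -1.83 in old and -0.88 in young liver, and fatty acid synthesis has the 6 calls.

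The same step was compared in mice of 4 months to ask whether it differs with age. In young liver 0 of 13436 genes were called (0%), with 455 at an unadjusted p under 0.05 against 1561 in old liver, and DESeq2 called 3. Same-numbered young libraries correlated by 0.311 to 0.535 in deviations from the group means, which does not settle whether they are paired. With the replicate number as a block the count was 0 in all 36 libraries. It was 41 (13 higher, 28 lower) when only the young groups compared were fitted. Fasn measured 1230, 1240 and 1630 CPM at 120 and 1610, 3200 and 2050 CPM at 240 in young liver, and all 3 young libraries at 120 lay above all 3 old ones. Apoa4 measured 573, 634 and 514 CPM and then 323, 440 and 620 CPM, without the high values of old liver at 120. Of the 34 genes called in old liver, 27 had the same sign in young liver. The share of all tested genes with the same sign was not counted, so the 27 do not show that the changes recur.

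The difference between the 2 steps was tested directly, and 0 genes (0%) passed, with 590 at an unadjusted p under 0.05 and 1 called by DESeq2. No gene's step from 120 to 240 was therefore shown to differ with age. For Fasn the old step exceeded the young one by 1.11 ± 0.44 on the log2 scale (unadjusted p = 0.0174, edgeR's quasi-likelihood test), for Apoa4 the difference was -2.55 ± 0.69 (unadjusted p = 0.000906) and for Igfbp1 -3.62 ± 1.01 (unadjusted p = 0.00126). The 4 smallest p-values belonged to Ttn, Cald1, Pgpep1 and Slc25a11. Cald1 fell in old liver and was at 0.21 ± 0.15 in young liver, a difference of -0.90 ± 0.21. Slc25a11 differed by 0.66 ± 0.17 and Pgpep1, a peptidase, by 1.05 ± 0.25. Ttn, a muscle gene, reached 1550 CPM in young 120 replicate 1 and at most 18.9 CPM in the other 11 libraries of the 4 groups.

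The number of calls changed with the tool, the libraries fitted and single libraries. A fit of only the 6 libraries called 0 of 12060 genes tested (1197 at an unadjusted p under 0.05), DESeq2 called 171, and leaving out old 120 replicate 1 left 0. All 34 called genes kept their direction under each of the 22 alternatives, which refit the same libraries or parts of them.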

How the data were processed

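RNA counts from 36 livers were used, 3 in each of 12 groups of age (4 or 18 months) and time point, called biological replicates in the design text. The authors deposited raw counts of reads per gene symbol, without normalization, in 1 table of 21955 rows per library. Per the submitters' processing notes, the tools used on the reads include Trimmomatic 0.39, STAR 2.7.5b and featureCounts, with the build GRCm38. The annotation and the use of strand are not given in the sources used here, so overlapping and antisense genes are uncertain. The labels describe ERCC spike-ins, but the tables held 0 ERCC rows, so changes in total RNA per cell cannot be seen. A further 27 rows had symbols that read as dates.

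Counts were fitted with edgeR 4.0.16 in R 4.3.3 (TMM scaling, filterByExpr on the 12 groups, 13436 genes kept). All 36 libraries entered 1 quasi-likelihood fit with 1 mean per group, and the fit was checked on simulated counts. In the simulation 45% of 2-fold and 80% of 4-fold changes were called, and 6.02% of the calls were false. Each simulated gene had the same spread in all groups, without a Y-linked split or a library with pancreatic transcripts. The check therefore does not cover those features, and many changes of 2-fold can go uncalled. The threshold was 0.05 on p-values adjusted over all tested genes by Benjamini-Hochberg, separately for each comparison. CPM used TMM-scaled totals, and list levels used log2(CPM + 1).

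Deviations from the group means were correlated between libraries at 120 and 240. Equal replicate numbers gave -0.187, 0.189 and -0.218 in old and 0.535, 0.322 and 0.311 in young liver. Unequal numbers reached 0.377 in old liver (120 replicate 3 with 240 replicate 1) and 0.223 in young liver (120 replicate 3 with 240 replicate 2). In young liver replicate 1 carried the Y-linked transcripts at both time points (248 and 321 CPM). Whether equal numbers mark shared animals or batches is therefore not settled, and the main fit used no replicate block. Pairs of old libraries of 1 group differed by more than sampling noise (chi-square per degree of freedom of 6.19 or more), so none was counted as a duplicate.

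Genes named were the 12 called with the largest change in each direction (mean CPM of at least 1, no overlap between groups, same sign and an unadjusted p under 0.05 without old 120 replicate 3), 30 genes taken whatever their result (some items are not reported here), leading members of gene lists, and the 4 smallest p-values for the difference between ages. The members and lists were chosen with earlier results of these data known. Genes named outside that rule, such as Adcy1, Gpx3, Eif2ak3, Scd1, Apcs, Per2 and Ly6d, were chosen after their values were seen. Promoter windows and positions came from RefSeq on GRCm38.p6, and exons from GENCODE. Alternatives changed the scaling, the filter, the depth, the tool (DESeq2 1.42.0), the samples fitted, a replicate block and a term for Y-linked transcripts, or left out libraries.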

Additional observations from a re-analysis of the deposited data

Results flagged for a closer look

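Pancreatic acinar transcripts appeared in libraries that none of the comparisons above used. Their summed level was 374 CPM in young 96 replicate 1, 16.6 CPM in old 48 replicate 2 and 15.1 CPM in young 72 replicate 1. These 3 libraries stood above the highest library before regeneration, which had 15 CPM. Only the first stood far above it, and old 120 replicate 3, at 762 CPM, was higher still.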

How the results depend on the processing

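The number of calls in old liver, 34, changed by at most 1.5 times under 6 alternatives. These were median-of-ratios scaling (33), total-count scaling (30), no filter (28), a CPM filter (34), thinning (30) and removal of pancreatic genes (34). The genes were not all the same: 24 of the 30 called after thinning and 29 of the 30 under total-count scaling were among the 34. The calls came to 171 with DESeq2, 69 with a replicate block nested in age, 61 with a term for Y-linked transcripts and 308 without the libraries that carry them. A fit of only the groups compared gave 0, as did the replicate block with only the groups compared and a fit of the 6 groups of the same age. Leaving out 1 library gave 0 (old 120 replicate 1) to 211 (old 120 replicate 3), with 6 without old 120 replicate 2 and 8, 7 and 11 without old 240 replicates 1, 2 and 3. Of alternatives chosen after seeing the data, a Y-linked term without old 120 replicate 3 gave 342, that term in DESeq2 gave 252, and leaving out old 120 replicate 3 with pancreatic genes gave 212. In young liver the count of 0 became 3 with DESeq2, 1 without Y-linked libraries, 41 with the replicate block and only the groups compared, 1 in the fit of the same age, 6 with the Y-linked term in DESeq2, and 0 to 14 with 1 library left out (14 without young 120 replicate 2, 6 without young 120 replicate 3). For the difference between ages it became 1 with DESeq2, 1 without Y-linked libraries, 2 with the Y-linked term in DESeq2, and 0 to 1 with 1 library left out (1 without young 120 replicate 2 or 3). Of 748 values of the 34 called genes over 22 alternatives, 478 kept their call, 270 kept only their direction and 0 reversed. With 1 library left out, uncalled genes crossed 0 on the log2 scale: Ccnd1 (-0.16 to 0.6), Ezh2 (-0.3 to 0.26), Alb (-0.16 to 0.09), Afp (-0.29 to 0.06), Cyp8b1 (-0.29 to 0.49), Saa1 (-3.31 to 0.99), Hamp (-0.06 to 0.85), Adgre1 (-0.15 to 0.54), Tgfb1 (-0.12 to 0.24), Socs2 (-0.83 to 0.8), Ctrl (-4.31 to 0.05) and Cela1 (-3.01 to 1.23). Without Y-linked libraries Adgre1 was at -0.23, Ctrl at 0.43 and Cela1 at 1.39. With the Y-linked term and old 120 replicate 3 left out, Ctrl was at 0.33 and Cela1 at 1.07, Ccnd1 was at -0.17 without that library and pancreatic genes, and Socs2 at 0.1 with the replicate block and only the groups compared. For Ctrl and Cela1, made in the pancreas, the direction rests on old 120 replicate 3; for the others the cause was not tested. With 3 libraries a group, small changes and genes near the limit of 3 counts cannot be told from spread.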

Other observations

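Further gene lists held no call between 120 and 240 in old liver. Of 36 genes of oxidative phosphorylation, 30 had a fold change above 0, beside 6859 of all 13436 tested genes. Their median was 0.13, and 10 lay higher at 240 without overlap, against 7.55% of all tested genes, but none was called. Of 30 genes of ribosome assembly in the nucleolus the median was 0.07, with Ncl at 539, 581 and 747 CPM at 120 and 670, 617 and 723 CPM at 240. Of 24 p53 targets the median was -0.17, and 0 were called. Dgat2, which makes triglyceride for storage, measured 342, 228 and 262 CPM and then 406, 531 and 490 CPM without overlap (adjusted p = 0.135). Ppara, the receptor that drives fatty acid oxidation, measured 581, 338 and 760 CPM and then 762, 1120 and 1290 CPM (adjusted p = 0.172), and all 3 libraries at 240 lay above those at 120.

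Of 22 genes of fetal liver and biliary progenitors, 17 had a fold change below 0 (49% of all tested genes did), with a median of -0.48 and 0 called. Ly6d, a small surface protein, measured 111, 43.7 and 87.4 CPM at 120 and 26.4, 7.48 and 5.09 CPM at 240, without overlap (adjusted p = 0.0995), above a mean of 3.66 ± 2.23 CPM (SD, n = 3) before. Igdcc4, a surface receptor of the immunoglobulin family, measured 37.4, 38.2 and 2.45 CPM and then 4.61, 1.36 and 2.33 CPM (adjusted p = 0.101). As with Igfbp1 and Adcy1, old 120 replicate 3 lay within its range at 240. Krt18, a keratin of hepatocytes and bile ducts, measured 348, 464 and 522 CPM and then 315, 215 and 188 CPM (adjusted p = 0.298), with no overlap.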
